A study of Mus musculus with 6 samples.

Results

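The genes described here encode cadherins, protocadherins and integrins, the transmembrane receptors that hold cells to each other and to the matrix. They were taken by symbol from the deposited gene table of mouse mesonephros, leaving out Cdh1 and Cdh5, and came to 95 of the 14366 listed genes. There were 17 cadherins, 50 protocadherins (20 of the beta cluster, 19 of the gamma cluster and 11 outside the clusters), 16 integrin alpha chains and 9 integrin beta chains. The other 3 genes, Itgb1bp1, Itgb1bp2 and Itgb3bp, share the integrin prefix but encode intracellular or nuclear proteins, and they are reported apart from the chains.

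RNA-seq was carried out on male mouse mesonephroi from embryonic day 16.5, dissected with the region of the mesonephric tubules. The 3 control samples had the genotype Osr2Cre+;Gata2-flox/+ and the 3 Gata2cKO samples Osr2Cre+;Gata2-flox/flox, so both groups carried the recombinase and at least 1 floxed allele of the transcription factor gene Gata2. The Cre is driven by Osr2, used here to reach mesenchyme; cells that do not express it keep Gata2 and are part of the same RNA. The question behind it is the role of Gata2 of the mesenchyme for the Wolffian duct, the tube that becomes the epididymis. Whether replicates were different embryos is not in the labels; the p-values thus reflect how these samples varied, which may be technical.

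Classical cadherins bind the same cadherin on a neighbouring cell through their extracellular repeats and hold the actin cytoskeleton through catenins. Clustered protocadherins are read from neighbouring first exons, each with its own promoter, and give cells of the nervous system different surface identities; other protocadherins are found in many embryonic tissues. An integrin is a pair of 1 alpha and 1 beta chain, and the alpha chain largely sets whether it binds laminin, collagen, fibronectin or a cell surface protein. In an embryonic duct, cadherins join the epithelial cells and integrins anchor epithelium and mesenchyme to basement membrane and stroma.

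Values are TPM (the transcript share of a gene in its library), which are scaled for gene length and can be compared between genes; read depth is not kept in this unit and is unknown. The 6 libraries listed between 12122 and 12301 genes at 1 TPM or more. Control replicate 1 stood apart, with 21.9% of its TPM from mitochondrially encoded transcripts against 13.2% to 16.3% in the other libraries. Gata2 was at 384 to 546 TPM in controls and 416 to 530 TPM in Gata2cKO; a sum over the whole gene says nothing of the floxed exons, so it does not check the labels. Epithelial, mesothelial and endothelial markers of the tissue were all found. Summed markers of the Wolffian duct epithelium (17 genes) were at 1348 to 1514 TPM in controls and 1736 to 1814 TPM in Gata2cKO, and those of the mesenchyme (12 genes) at 6616 to 8198 TPM and 7410 to 9345 TPM. The mesenchymal sum rests mostly on collagen genes; of its 12 genes 1 rose and 3 fell, Tcf21 from 766 ± 63.2 to 449 ± 15.2 TPM, Osr2 from 261 ± 54.1 to 127 ± 9.35 TPM and Twist2 from 5.45 ± 0.237 to 3.91 ± 0.250 TPM (limma adjusted p = 0.00856, 0.0136 and 0.0367).

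A change is called where limma, fitted to log2(TPM + 1) of the 12300 genes with 1 TPM or more in at least 3 libraries, gave a Benjamini-Hochberg adjusted p under 0.05. On that scale a positive log2 fold change means higher in Gata2cKO; it understates changes of low genes, and fold values are ratios of mean TPM. Of the 95 genes 55 reached the filter; 10 of these 55 (18.2%) were called, 9 higher and 1 lower in Gata2cKO, where 7.47% of all tested genes were called, 5.73% higher and 1.74% lower. The 9 that rose were the integrin genes Itga3, Itga6, Itga7, Itgav and Itgb1, the cadherin gene Cdh16 and the protocadherin genes Pcdh12, Pcdhb4 and Pcdhb9. The gene that fell was Itga4. The median log2 fold change was 0.17 over the 55 and 0.05 over all 12300 tested genes, and the groups did not overlap in 22 of the 55 (40%; 19 with all Gata2cKO libraries higher and 3 lower) beside 33.9% of all tested genes (23.4% and 10.5%). Among all 95 genes 28 did not overlap, beside 33.2% of all listed genes. With median-of-ratios scaling of the libraries 7 rose and 2 fell, Itgav and Pcdhb4 no longer past the threshold (adjusted p = 0.0667 and 0.0535) and Cdh24 past it (adjusted p = 0.0382). The calls were fragile to the loss of a library: without Gata2cKO replicate 1 only Itga4 remained, while 4 of the 10 kept their calls without Gata2cKO replicate 2, 3 without Gata2cKO replicate 3, 5 after removal of control replicate 2, 5 after that of control replicate 3 and 9 after that of control replicate 1. Calls over all genes also varied widely with the library removed, as given in the last section, so this is not a trait of these genes alone. Of the calls over all genes 76.7% were higher on TPM and 54.9% with median-of-ratios scaling.

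**Figure D1:**
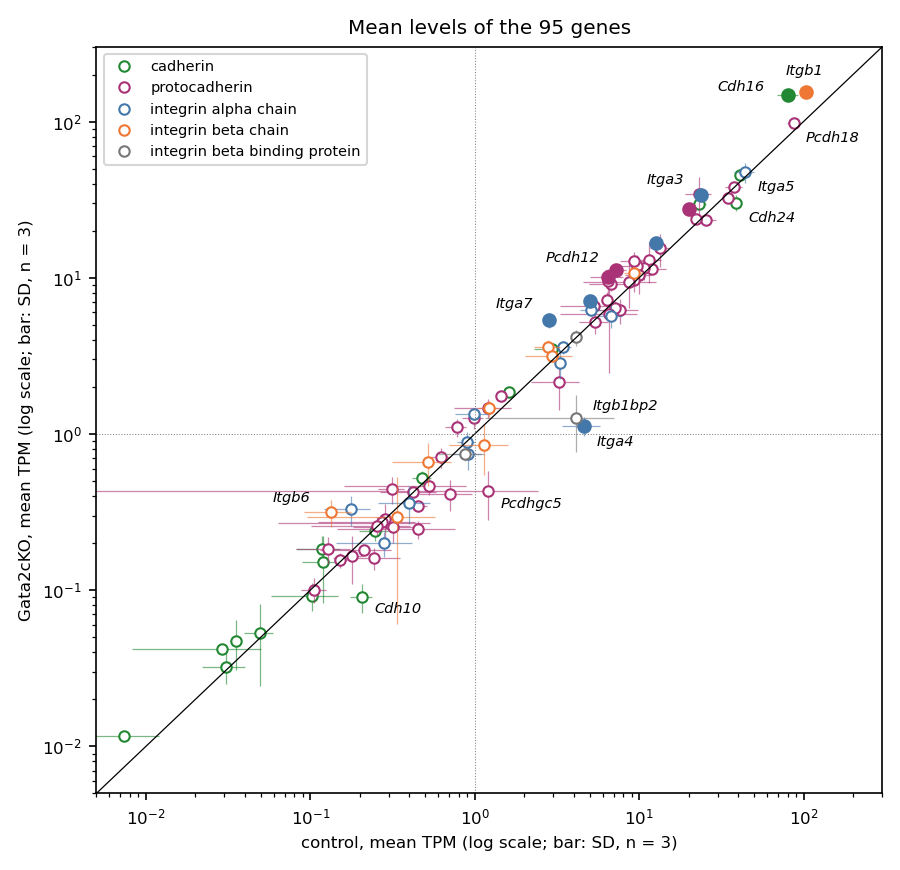
Mean TPM of each of the 95 genes in control (x axis) and Gata2cKO (y axis), both on log scales, with SD bars (n = 3 each), coloured by family; filled points passed the threshold, the dotted lines mark 1 TPM and the diagonal marks equal levels. Cdh16 and Itgb1 lie highest and above the diagonal, Itga4 lies far below it, and most genes under 1 TPM were not tested.

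The levels spanned a wide range. In the mean over the 6 libraries 22 genes reached 10 TPM and 41 were under 1 TPM, and no value was listed at 0. The highest were the integrin beta chain gene Itgb1 (129.5 TPM), the cadherin gene Cdh16 (114.5 TPM) and the protocadherin gene Pcdh18 (92.5 TPM). Cdh16 made up 50.9% of the summed cadherin TPM and Itgb1 86.8% of the summed integrin beta chain TPM, whereas the highest protocadherin, Pcdh18, made up 20.6% of its family. The families thus differed in how far 1 gene accounted for the total.

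**Figure D2:**
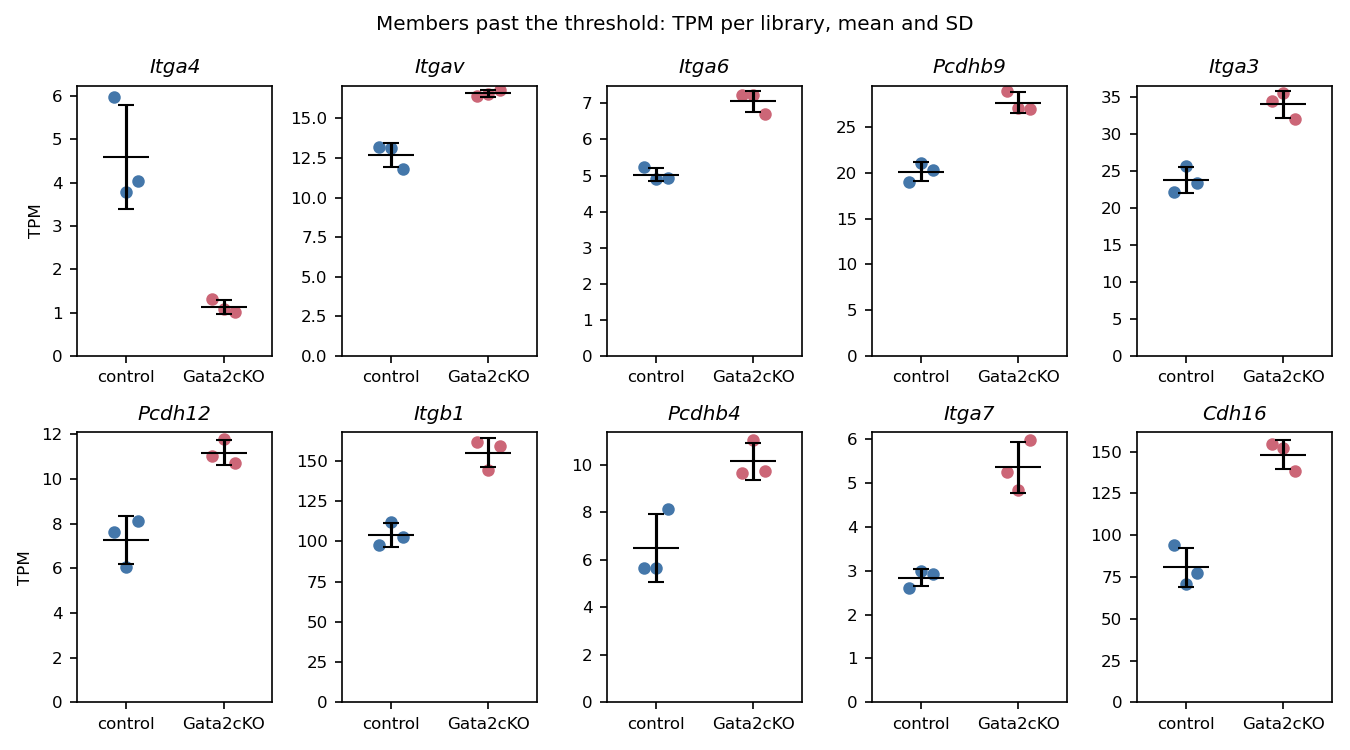
TPM in each library (y axes start at 0) for the 10 genes past the threshold, controls in blue and Gata2cKO in red, with the mean and SD of each group (n = 3). In each panel the 3 Gata2cKO points lie on the same side of the 3 control points, below them for Itga4 and above them for the other genes.

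Itga4, which encodes the alpha4 chain of the integrins that bind VCAM1 and fibronectin, was 4.06-fold lower in Gata2cKO. It was at 5.98, 3.78 and 4.03 TPM in control replicates 1, 2 and 3 and at 1.31, 1.07 and 1.01 TPM in Gata2cKO replicates 1, 2 and 3. The means were 4.60 ± 1.20 and 1.13 ± 0.160 TPM (SD, n = 3 each). The lowest control was well above the highest Gata2cKO library. On the log2 scale the difference was -1.37 (SE 0.15), with a limma adjusted p of 0.00756. The value in the authors' deposited table is -2.08. Itga4 was the gene of the 10 that kept its call whichever of the 6 libraries was removed (highest adjusted p 0.0404, without Gata2cKO replicate 2). It lies on the plus strand of chromosome 2 from 79255426 to 79333123 (GRCm38), and 8.04% of its exon bases also lie in exons of Cerkl on the opposite strand. The use of strand in the counting was not given in the sources used here.

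Itga9, the alpha chain nearest to Itga4 in sequence and likewise a receptor for VCAM1 and matrix proteins, was at 3.54, 3.07 and 3.78 TPM in controls and 3.48, 3.99 and 3.29 TPM in Gata2cKO. These values overlapped, with a log2 fold change of 0.04 (95% interval -0.20 to 0.28, limma adjusted p = 0.834). The beta chains that join alpha4 are the products of Itgb1, which rose, and of Itgb7, a lymphocyte chain at 1.64, 0.785 and 0.997 TPM in controls and 1.08, 0.503 and 0.986 TPM in Gata2cKO. In controls there was 0.0448 ± 0.0146 TPM of Itga4 for each TPM of Itgb1, and in Gata2cKO 0.00731 ± 0.000897 (SD, n = 3 each). Leukocytes also carry alpha4. Summed macrophage markers (11 genes) were at 370 to 452 TPM in controls and 452 to 504 TPM in Gata2cKO, and of the lymphocyte markers 2 of 9 were listed, at 4.82 to 14.3 TPM and 6.87 to 9.33 TPM. Mast cell markers (5 genes, of which 3 rose and 0 fell) were at 98.0 to 139 TPM in controls and 274 to 299 TPM in Gata2cKO. The part of these cells in the value of Itga4 was not tested. In a whole tissue, fewer cells of a type and less RNA per cell cannot be told apart, for this gene or for any other given here.

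Itgb1 encodes the beta1 chain, the common partner of most alpha chains measured, and was 1.49-fold higher in Gata2cKO. It was at 97.4, 112 and 103 TPM in controls and 161, 144 and 159 TPM in Gata2cKO. The means were 104 ± 7.37 and 155 ± 9.17 TPM (SD, n = 3 each). The groups stood clearly apart. On the log2 scale the difference was 0.57 (SE 0.09), with a limma adjusted p of 0.0149, and removing Gata2cKO replicate 1 (adjusted p = 0.0731) or Gata2cKO replicate 3 (adjusted p = 0.0668) ended the call. The gene lies on chromosome 8 from 128685654 to 128733200.

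The promoters of Itga4 and Itgb1 are shown because these genes changed in opposite directions and are partners in 1 receptor. RefSeq promoter windows (GRCm38.p6, 250 bases before to 50 after a start) were on hand for 38 of the 95 genes, with 43 windows. The 250 bases before the start are printed 5′ to 3′, with capitals for the GC box GGGCGG, read on both strands.
Itga4, chr2:79255176-79255425, plus strand: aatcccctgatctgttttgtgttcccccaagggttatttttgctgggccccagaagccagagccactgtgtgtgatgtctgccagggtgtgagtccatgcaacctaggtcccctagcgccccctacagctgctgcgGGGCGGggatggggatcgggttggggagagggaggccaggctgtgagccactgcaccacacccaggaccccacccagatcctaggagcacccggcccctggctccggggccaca
Itgb1, chr8:128685404-128685653, plus strand: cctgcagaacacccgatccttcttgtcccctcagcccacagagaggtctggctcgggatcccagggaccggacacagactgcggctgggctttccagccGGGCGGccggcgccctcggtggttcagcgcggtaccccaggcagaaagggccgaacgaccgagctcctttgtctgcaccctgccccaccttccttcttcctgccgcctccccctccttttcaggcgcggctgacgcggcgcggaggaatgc
Each stretch held 1 GC box, beginning 114 bases before the start of Itga4 and 151 bases before that of Itgb1. Such a box was found before 32.7% of all 32851 starts and in 16 of the 43 windows of the genes described here (37.2%). The GATA words (AGATAA or the same with a final G, and TGATAA or the same with a final G), searched on both strands of the whole 300 bases, were in neither window. They were in 29.8% of all windows and in 8 of the 43 (18.6%), 0 of the 13 windows of integrin alpha chains among them. These are matches of letters in short windows only. The 43 windows had a median GC content of 59.3%, beside 52.7% in all windows, and the shares were not adjusted for it.

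The laminin-binding alpha chains were called higher, 3 of 3, beside 5.73% of all tested genes. A group of 3 genes is too small for a result about the group. Itga3, whose product pairs with beta1 and binds laminins of epithelial basement membranes, was at 22.1, 25.6 and 23.3 TPM in controls and 34.4, 35.4 and 32.0 TPM in Gata2cKO. On the log2 scale the difference was 0.50 (SE 0.09), with a limma adjusted p of 0.0198. Every Gata2cKO value lay above every control, but the call was kept in only 2 of the 6 removals of a library (highest adjusted p 0.0909, without Gata2cKO replicate 1).

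Itga6, whose chain pairs with beta1 or with the hemidesmosomal beta4, was at 5.23, 4.92 and 4.93 TPM in controls and 7.24, 7.22 and 6.71 TPM in Gata2cKO. The groups did not overlap, with a log2 fold change of 0.42 (SE 0.08, limma adjusted p = 0.0276). The call was kept in 1 of the 6 removals, without control replicate 1, and was lost with replicate number as a block (adjusted p = 0.0529) and with mitochondrial genes left out of the total (adjusted p = 0.0668).

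Itga7, a laminin receptor chain known from muscle and peripheral nerve, rose 1.88-fold. It was at 2.61, 3.00 and 2.91 TPM in controls and 5.24, 4.84 and 5.97 TPM in Gata2cKO, again with no overlap. On the log2 scale the difference was 0.72 (SE 0.10), with a limma adjusted p of 0.0117. Of the removals, only that of Gata2cKO replicate 1 ended the call (adjusted p = 0.0556). Marker sums of cell types in which this chain is known differed in direction. They were lower in Gata2cKO for smooth muscle, higher for Schwann and glial cells, and overlapped for skeletal muscle. Smooth muscle genes (8) were at 688 to 766 TPM in controls and 570 to 627 TPM in Gata2cKO. Of 7 tested 2 fell and 0 rose. Acta2 made up most of the difference, at 315 ± 50.6 and 196 ± 11.9 TPM, while Des was at 181 ± 26.2 and 190 ± 24.3 TPM. Schwann and glial genes (7) were at 18.8 to 24.9 TPM and 29.8 to 37.8 TPM, 2 of 7 tested higher and 0 lower. Skeletal muscle genes (3 of 8 listed) were at 0.537 to 10.8 TPM and 0.755 to 2.38 TPM. Their part in the value of Itga7 was not tested.

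Summed over the 3 genes, laminin-binding alpha chains were at 31.6 ± 1.79 TPM in controls and 46.3 ± 1.51 TPM in Gata2cKO (SD, n = 3 each). Epithelial marker sums, given above, and mesothelial ones (7 genes; 357 to 460 TPM in controls and 577 to 672 TPM in Gata2cKO) were also higher; their part in the values of these chains and of Itgb1 was not tested. Itga3 accounted for 74.0% of the alpha chain sum over all libraries. The ratio of Itga3 to Itgb1 was 0.228 ± 0.000903 in controls and 0.220 ± 0.0229 in Gata2cKO; the Gata2cKO ratios lay on both sides of the controls, whose own spread was far smaller. The ratio of Itga7 to Itgb1 was 0.0273 ± 0.000865 in controls and 0.0345 ± 0.00270 in Gata2cKO, without overlap, and that of Itga6 to Itgb1 was 0.0485 ± 0.00494 and 0.0457 ± 0.00396. The partner of alpha6 in hemidesmosomes, Itgb4, was at 4.03, 2.19 and 2.69 TPM in controls and 2.92, 3.20 and 3.34 TPM in Gata2cKO. Control replicate 1 was the highest of the 6, the groups overlapped, and the log2 fold change was 0.09 (95% interval -0.29 to 0.47, limma adjusted p = 0.758).

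Alpha chains that recognise the tripeptide RGD gave a mixed picture, with 1 of 4 called. Itgav, whose chain joins several beta chains and binds vitronectin and latent TGF-beta, was at 13.2, 13.1 and 11.8 TPM in controls and 16.4, 16.5 and 16.8 TPM in Gata2cKO. The Gata2cKO values lay close together and above all controls (limma adjusted p = 0.0379; log2 fold change 0.36, SE 0.08). The call was kept in 1 of the 6 removals, without control replicate 1, and was lost under each of the 3 other scalings (adjusted p = 0.0667 by median of ratios, 0.0623 by upper quartile and 0.103 without mitochondrial genes) and with the replicate block (adjusted p = 0.0731).

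Itga5, the fibronectin receptor chain and the most abundant alpha chain, was at 37.4, 44.9 and 49.8 TPM in controls and 43.7, 55.0 and 42.8 TPM in Gata2cKO. The groups overlapped, and the log2 fold change was 0.10 (95% interval -0.22 to 0.41, limma adjusted p = 0.680). Itga8, whose chain with beta1 binds nephronectin and is needed in the mesenchyme of the kidney, was at 5.47, 7.62 and 7.06 TPM in controls and 5.40, 4.95 and 6.82 TPM in Gata2cKO. It did not pass (log2 fold change -0.20, 95% interval -0.54 to 0.14, limma adjusted p = 0.418). Relative to Itgb1, which rose, Itga8 was at 0.0643 ± 0.00705 in controls and 0.0369 ± 0.00522 in Gata2cKO, without overlap (SD, n = 3 each). The ratio of Itga5 to Itgb1 was also lower without overlap, at 0.423 ± 0.0535 and 0.307 ± 0.0637. A higher Itgb1 by itself lowers such ratios.

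Itga2b, the alpha chain of the platelet fibrinogen receptor, was at 4.53, 4.87 and 5.98 TPM in controls and 6.44, 6.02 and 6.07 TPM in Gata2cKO. The groups did not overlap but lay close (log2 fold change 0.23, limma adjusted p = 0.203). Its partner Itgb3 was at 1.42, 1.11 and 1.13 TPM in controls and 1.33, 1.65 and 1.40 TPM in Gata2cKO (limma adjusted p = 0.382). Of 8 platelet markers 2 were listed, Pf4 and Gp1bb, with sums of 94.3 to 129.8 TPM in controls and 110 to 140.2 TPM in Gata2cKO.

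None of the collagen-binding alpha chains was called. Of the 4, Itga10 and Itga1 were tested and Itga2 and Itga11 were under the filter. Itga10, a cartilage chain, was at 3.42, 3.45 and 3.08 TPM in controls and 2.45, 3.55 and 2.57 TPM in Gata2cKO (log2 fold change -0.17, limma adjusted p = 0.405); in the annotation used here 33.5% of its exon bases are shared with Gm42957 on the same strand. Itga1 was at 1.21, 0.771 and 0.970 TPM in controls and 1.33, 1.43 and 1.29 TPM in Gata2cKO, with no overlap (log2 fold change 0.25, limma adjusted p = 0.180); it met the filter through the Gata2cKO libraries. Summed collagen-binding chains were at 5.39 ± 0.166 TPM in controls and 5.27 ± 0.720 TPM in Gata2cKO (SD, n = 3 each).

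Among beta chains, Itgb1 was the 1 called of 5 tested. Itgb5, a partner of alphav, was at 7.87, 9.78 and 10.2 TPM in controls and 9.69, 11.01 and 11.3 TPM in Gata2cKO (log2 fold change 0.18, 95% interval -0.08 to 0.45, limma adjusted p = 0.339). Itgb8, which with alphav activates TGF-beta, was at 3.35, 2.76 and 2.32 TPM in controls and 3.88, 3.76 and 3.09 TPM in Gata2cKO (log2 fold change 0.27, 95% interval -0.02 to 0.56, limma adjusted p = 0.215). In both genes the groups overlapped. Itgb6, an epithelial partner of alphav, was under the filter at 0.105, 0.114 and 0.182 TPM in controls and 0.331, 0.367 and 0.249 TPM in Gata2cKO. Its groups did not overlap, and the authors' deposited table gives an adjusted p of 0.0113 for it.

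Integrins of leukocytes were near the floor in both groups. Itgal, Itgam, Itgae, Itgb2, Itgb7 and Itgb2l had means between 0.239 and 0.998 TPM over the 6 libraries, and none of the 6 reached the filter. Their sum was 3.56 ± 0.888 TPM in controls, where control replicate 1 was highest at 4.55 TPM, and 3.27 ± 0.234 TPM in Gata2cKO (SD, n = 3 each). Of the exon bases of Itgam, 68.7% are shared with Gm49368 on the same strand, so its value is uncertain. Neutrophil markers (6 genes) were at 10.9 to 35.2 TPM in controls and 53.3 to 167 TPM in Gata2cKO over the same libraries. The highest value was that of Gata2cKO replicate 1, with 53.3 and 59.5 TPM in replicates 2 and 3. Of 4 tested genes 2 rose and 0 fell. S100a8 rose from 12.1 ± 6.12 to 58.0 ± 34.7 TPM and S100a9 from 4.19 ± 3.52 to 22.5 ± 15.3 TPM. These made up most of the sum, and each kept its call in 1 of the 6 removals. Ngp and Camp did not pass (limma adjusted p = 0.357 and 0.580). Csf3r and Ltf were under the filter, Csf3r lower and Ltf higher in mean in Gata2cKO.

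**Figure D3:**
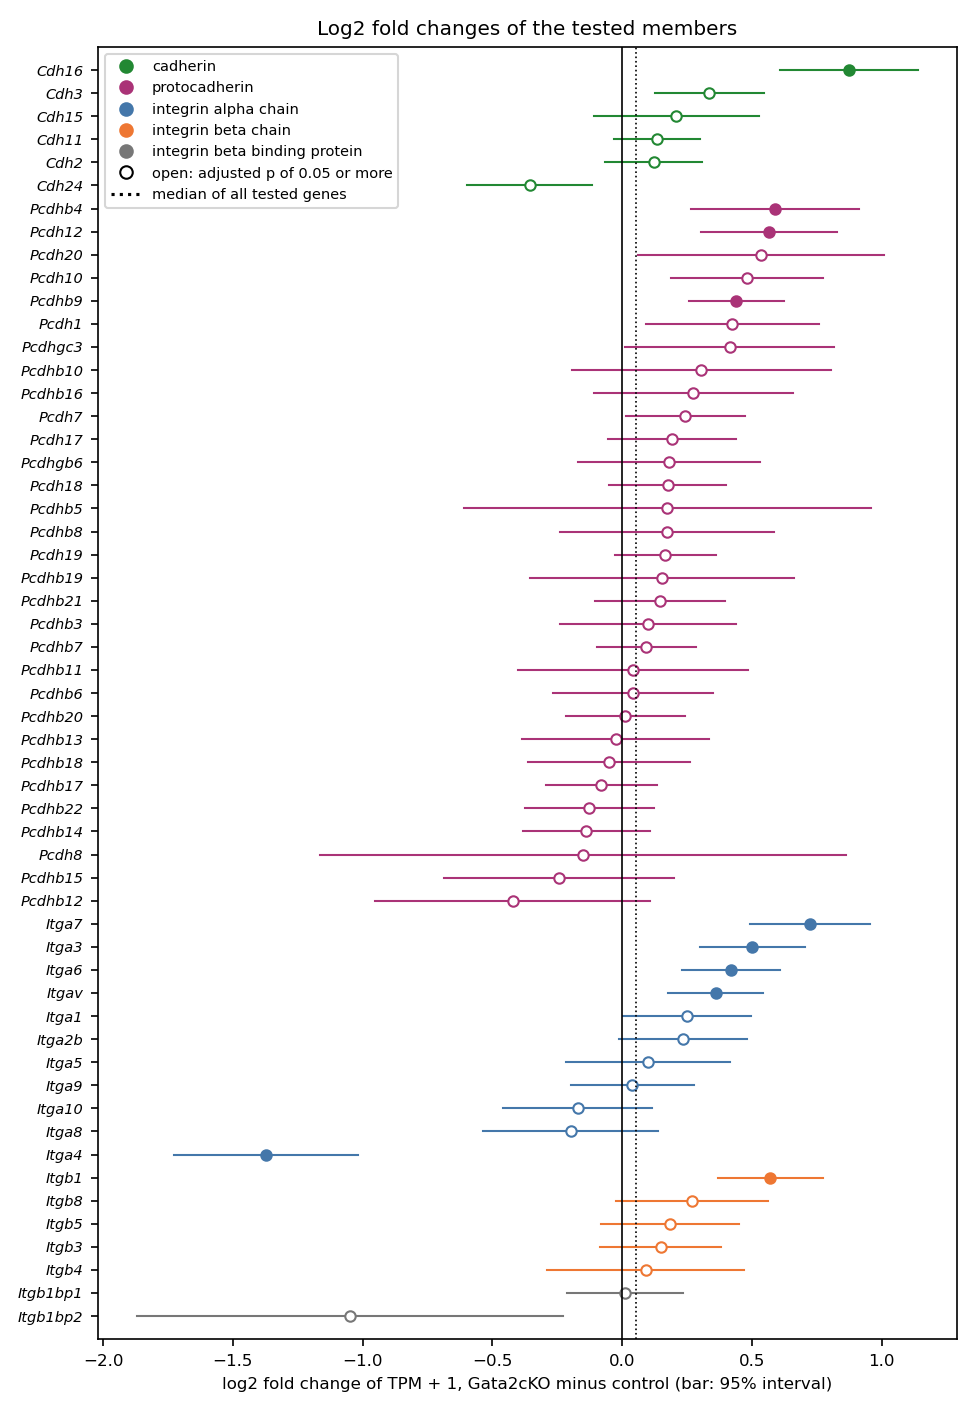
Log2 fold change of log2(TPM + 1), Gata2cKO minus control (x axis), with its 95% interval, for each of the 55 tested genes by family; filled points passed the threshold, the solid line marks 0 and the dotted line the median of all tested genes (0.05). Itga4 is the lowest at -1.37, next to it is Itgb1bp2 at -1.05 with a wide interval and no call, and Cdh16 is the highest at 0.87.

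Of the 17 cadherins 6 were tested and 1 was called. Cdh16, known as kidney-specific cadherin and found in tubular epithelium and in the Wolffian duct, was 1.83-fold higher in Gata2cKO. It was at 93.9, 71.0 and 77.6 TPM in controls and 155, 152 and 138 TPM in Gata2cKO. The means were 80.8 ± 11.8 and 148 ± 8.79 TPM (SD, n = 3 each). No Gata2cKO library came near the highest control. On the log2 scale the difference was 0.87 (SE 0.11), with a limma adjusted p of 0.0108, and the call was lost only without Gata2cKO replicate 1 (adjusted p = 0.0517). It lies on the minus strand of chromosome 8 from 104601911 to 104624396. Of 16 tested epithelial markers 5 rose and 0 fell, and their sum is given above; Cdh1 itself was at 5.32, 2.84 and 3.35 TPM in controls and 5.64, 6.15 and 5.43 TPM in Gata2cKO. Of 4 tested kidney glomerulus and tubule markers 3 rose, with sums of 79.7 to 86.1 TPM in controls and 129 to 131 TPM in Gata2cKO. The part of these markers in the value of Cdh16 was not tested.

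Cdh3, P-cadherin, which is found in basal and embryonic epithelia, was at 21.03, 23.3 and 25.4 TPM in controls and 28.8, 30.7 and 29.1 TPM in Gata2cKO. The groups did not overlap, but the gene missed the threshold (limma adjusted p = 0.0648 with a log2 fold change of 0.34; adjusted p of 0.0365 in the authors' deposited table). Cdh11, the cadherin of mesenchyme, was the second most abundant of the family at 40.6, 41.4 and 41.2 TPM in controls and 46.7, 45.5 and 43.4 TPM in Gata2cKO. Its values varied little within a group, the groups did not overlap, and the difference was small (log2 fold change 0.14, 95% interval -0.03 to 0.30, limma adjusted p = 0.265). The ratio of Cdh16 to Cdh11 was 1.97 ± 0.307 in controls and 3.27 ± 0.0818 in Gata2cKO (SD, n = 3 each).

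Cdh24, a type II cadherin, went the other way, at 41.5, 36.5 and 38.5 TPM in controls and 27.7, 34.4 and 28.6 TPM in Gata2cKO. The groups did not overlap, and the log2 fold change of -0.36 (SE 0.10, limma adjusted p = 0.0780) missed the threshold. It was past it with median-of-ratios scaling (adjusted p = 0.0382), with upper-quartile scaling (adjusted p = 0.0469) and in the authors' deposited table (adjusted p = 0.00946). Cdh2, N-cadherin, was low at 1.61, 1.57 and 1.68 TPM in controls and 1.82, 1.89 and 1.84 TPM in Gata2cKO, and Cdh15, M-cadherin of muscle, was at 3.32, 2.18 and 3.32 TPM and 3.20, 3.56 and 3.77 TPM. Neither passed (limma adjusted p = 0.371 and 0.368).

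The other 11 cadherins were under the filter, with means of 0.00951 to 0.501 TPM: Cdh4, Cdh6, Cdh7, Cdh8, Cdh10, Cdh13, Cdh17, Cdh18, Cdh22, Cdh23 and Cdh26. Several of these are known from brain. Cdh10 was at 0.190, 0.186 and 0.242 TPM in controls and 0.0907, 0.0719 and 0.110 TPM in Gata2cKO. The groups did not overlap, and the authors' deposited table gives a log2 fold change of -1.24 with an adjusted p of 0.00289 for it. Cdh8, at 0.0834 to 0.154 TPM in controls and 0.158 to 0.230 TPM in Gata2cKO, was the other gene of the 11 without overlap.

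Outside the clusters, 9 of 11 protocadherins were tested and 1 was called. Pcdh12, an adhesion protein of endothelium, rose 1.54-fold, from 7.64, 6.04 and 8.12 TPM in controls to 11.01, 11.8 and 10.7 TPM in Gata2cKO. The groups were apart (limma adjusted p = 0.0304; log2 fold change 0.57, SE 0.11), but the call was kept in 1 of the 6 removals, without control replicate 1, and was narrowly lost with mitochondrial genes left out of the total (adjusted p = 0.0509). Summed endothelial markers (9 genes, of which 3 rose and 0 fell) were at 212 to 286 TPM in controls and 306 to 378 TPM in Gata2cKO. Cdh5, the defining endothelial cadherin, was at 22.7, 23.5 and 24.2 TPM and 27.5, 32.5 and 27.2 TPM. Their part in the value of Pcdh12 was not tested.

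Pcdh18, a mesenchymal protocadherin and the most abundant of the family, was at 77.8, 93.5 and 89.4 TPM in controls and 100.5, 90.6 and 103 TPM in Gata2cKO, with overlap (log2 fold change 0.17, 95% interval -0.05 to 0.40, limma adjusted p = 0.287). Pcdh10 was at 6.40, 6.64 and 6.46 TPM in controls and 9.65, 11.3 and 7.76 TPM in Gata2cKO. It had no overlap and just missed the threshold (log2 fold change 0.48, limma adjusted p = 0.0609; 0.0032 in the authors' deposited table). Pcdh1 was at 11.04, 7.81 and 9.01 TPM in controls and 11.7, 14.9 and 11.7 TPM in Gata2cKO (log2 fold change 0.42, limma adjusted p = 0.110).

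Pcdh20 and Pcdh8 varied widely within groups. Pcdh20 was at 19.3, 27.8 and 22.4 TPM in controls and 31.5, 26.6 and 45.4 TPM in Gata2cKO, so that 1 library, Gata2cKO replicate 3, was far above the rest (limma adjusted p = 0.142). Pcdh8, a gene of somite and neural development, was at 2.88, 7.77 and 8.91 TPM in controls. In Gata2cKO it was at 2.87, 9.50 and 5.08 TPM, and both groups held low and high libraries (log2 fold change -0.15, 95% interval -1.16 to 0.86, limma adjusted p = 0.854). Pcdh7, Pcdh17 and Pcdh19 had means of 0.938 to 1.60 TPM and did not pass, and Pcdh9 and Pcdh11x were under the filter. Pcdh9 was at 0.403 to 0.517 TPM in controls and 0.340 to 0.354 TPM in Gata2cKO, without overlap.

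The beta and gamma protocadherin clusters lie side by side on chromosome 18, the 20 listed beta genes from 37300799 to 37524479 and the 19 listed gamma genes from 37661793 to 37841873. The beta genes are near-identical in parts, and reads that fit several could be split between them, so values of single genes are uncertain. Gamma genes share their last exons. The treatment of shared reads in the counting was not given in the sources used here.

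All 20 beta genes reached the filter, with means of 2.71 to 37.9 TPM, and 2 were called, both higher. That is 10% of the cluster, beside 7.47% of all tested genes. Their summed level was 267 ± 11.5 TPM in controls and 282 ± 4.99 TPM in Gata2cKO (SD, n = 3 each), the 3 most abundant genes making up 34.9% of it. The median log2 fold change was 0.07, with 13 values above 0 and 7 below, close to the median of 0.05 over all tested genes.

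Pcdhb9 was at 19.0, 21.04 and 20.3 TPM in controls and 29.0, 27.1 and 26.9 TPM in Gata2cKO (limma adjusted p = 0.0221; log2 fold change 0.44, SE 0.08). Pcdhb4 was at 5.67, 5.66 and 8.16 TPM in controls and 9.67, 11.1 and 9.72 TPM in Gata2cKO (limma adjusted p = 0.0464; log2 fold change 0.59, SE 0.14). Neither gene had overlap between its groups, and each kept its call in 1 of the 6 removals. In the authors' deposited table neither passed, with adjusted p of 0.190 for Pcdhb9 and 0.220 for Pcdhb4. For Pcdhb4 the call was also lost without the filter on low values (adjusted p = 0.0634), with median-of-ratios scaling (adjusted p = 0.0535), with mitochondrial genes left out of the total (adjusted p = 0.0531) and with the replicate block (adjusted p = 0.0505).

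The other 18 beta genes overlapped between the groups. Pcdhb20, the most abundant, was at 33.1, 41.7 and 38.6 TPM in controls and 37.9, 39.3 and 36.6 TPM in Gata2cKO (log2 fold change 0.01, 95% interval -0.22 to 0.24, limma adjusted p = 0.951). Pcdhb17 was at 33.7, 32.5 and 37.3 TPM and 33.9, 34.1 and 29.7 TPM (log2 fold change -0.08, limma adjusted p = 0.611). The lowest log2 fold change of the cluster was -0.42, for Pcdhb12 (95% interval -0.95 to 0.11, limma adjusted p = 0.276), of which 63.5% of the exon bases lie in the antisense gene Gm37446. Pcdhb5 varied widely, with 4.32 to 12.4 TPM within controls and 7.51 to 12.9 TPM within Gata2cKO.

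**Figure D4:**
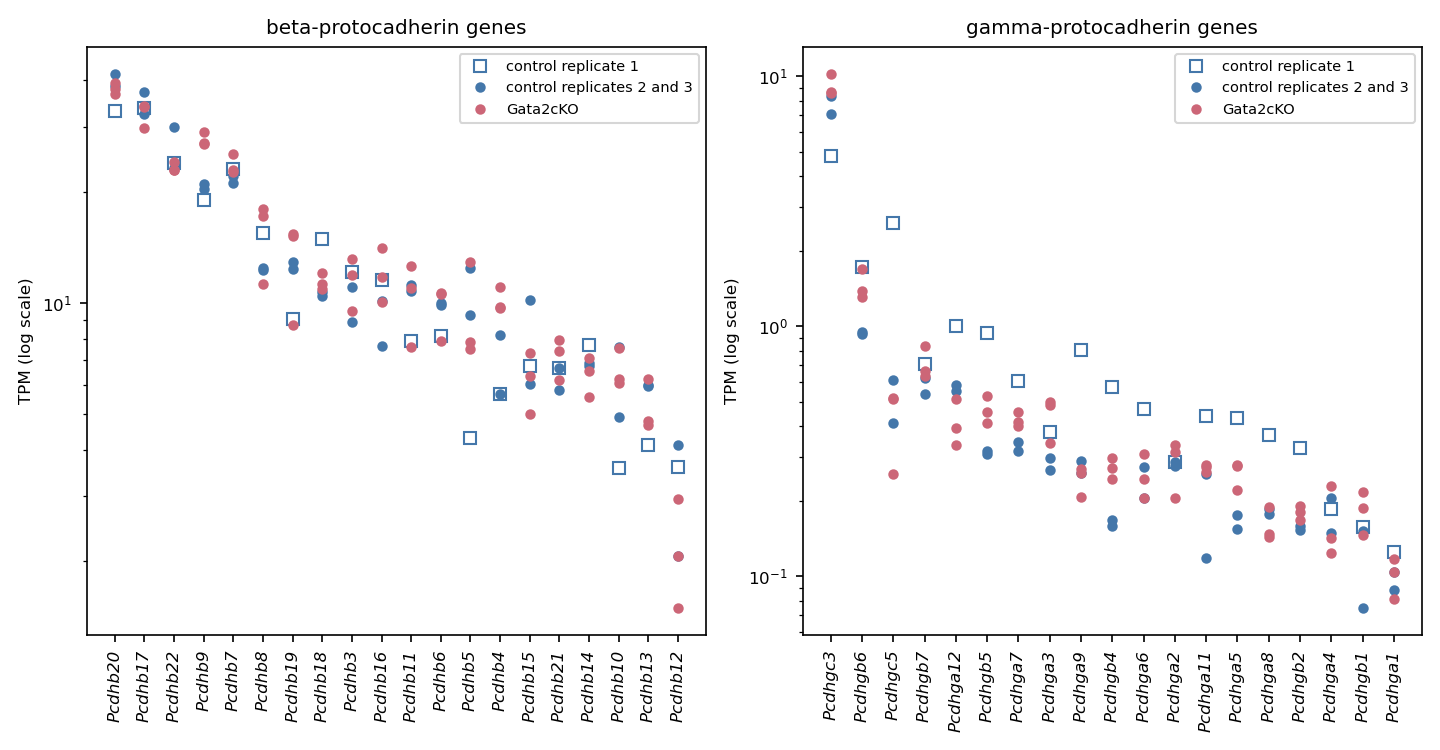
TPM of each beta (left) and gamma (right) protocadherin gene in each library, on log scales, with genes ordered by mean level; open squares are control replicate 1, blue points the other controls and red points Gata2cKO. The beta genes lie above 1 TPM with mixed order, while control replicate 1 is the highest of the 6 libraries for 13 of the 19 gamma genes.

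Gamma genes were low. Of the 19, Pcdhgc3 and Pcdhgb6 were tested and neither was called. Pcdhgc3, the C-type gene that made up 52.4% of the summed gamma TPM, was at 4.81, 7.08 and 8.35 TPM in controls and 8.65, 10.2 and 8.57 TPM in Gata2cKO. The groups lay apart by little (log2 fold change 0.41, 95% interval 0.01 to 0.82, limma adjusted p = 0.173).

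The other 17 gamma genes were under the filter with means of 0.103 to 0.818 TPM, and many were set by control replicate 1. Pcdhgc5 was at 2.60, 0.610 and 0.409 TPM in controls and at 0.512, 0.516 and 0.258 TPM in Gata2cKO. Pcdhga9 was at 0.803, 0.260 and 0.289 TPM in controls and 0.208, 0.258 and 0.270 TPM in Gata2cKO. Control replicate 1 was the highest library for 13 of the 19 gamma genes and 2 of the 20 beta genes, and for 23.5% of all listed genes. Without Pcdhgc3 the gamma sum was 12.1, 5.55 and 5.56 TPM in controls and 6.47, 7.59 and 6.09 TPM in Gata2cKO. The share of mitochondrial transcripts was also highest in that library; its part in these values was not tested.

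The same library held the highest value of Itgb1bp2, which encodes melusin, a muscle protein that binds the beta1 tail. It was at 7.50, 2.43 and 2.38 TPM in controls and 0.819, 1.80 and 1.18 TPM in Gata2cKO, without overlap (limma adjusted p = 0.109 with a log2 fold change of -1.05; adjusted p of 0.0304 in the authors' deposited table). The skeletal muscle actin gene Acta1 was at 9.30, 0.574 and 0.324 TPM in controls and 1.40, 0.507 and 1.94 TPM in Gata2cKO. Its part in the value of Itgb1bp2 was not tested. Itgb1bp1, a regulator of integrin activation, was at 4.08, 4.21 and 4.07 TPM and 3.69, 4.14 and 4.67 TPM (limma adjusted p = 0.961), and Itgb3bp, a centromere protein, was under the filter at 0.633 to 1.17 TPM.

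Genes that work with these receptors were followed in 6 lists; 85 of their genes were tested, and 14 rose and 1 fell, beside 5.73% higher and 1.74% lower of all tested genes (7.47% called). The counts of 1 of 28, 2 of 13, 1 of 10 and 1 of 3 in single lists rest on 1 or 2 genes each and are not results about those lists. Integrin ligands other than collagens and laminins had 10 of 26 tested members higher and 0 lower and a median log2 fold change of 0.36. The lists were chosen with earlier results of these data known. This count therefore cannot show that ligands changed more often than other genes. Postn, periostin, rose from 168 ± 21.4 to 377 ± 22.4 TPM and Nov, a matricellular CCN protein, from 1.60 ± 0.806 to 9.74 ± 0.906 TPM (limma adjusted p = 0.0044 and 0.00739). As small an adjusted p as that of Nov was found for Ltbp1, which encodes a latent TGF-beta binding protein, and for Fbln5, which encodes an elastic fibre protein with an RGD site. Ltbp1 rose from 4.96 ± 0.152 to 8.90 ± 0.338 TPM and Fbln5 from 14.0 ± 1.64 to 27.7 ± 0.911 TPM (SD, n = 3 each), with a limma adjusted p of 0.00739 for either gene, and no single removal ended either call. The others of the 10 were Fbn1, Vtn, Tnc, Thbs2, Vcam1 and Npnt. Several of the 10 are known ligands of the alphav integrins. Without control replicate 1 the list had 11 members higher and 2 lower. Cyr61 and Ctgf were lower in mean in Gata2cKO, each past the threshold in 1 of the 6 removals. Cyr61 was at 487 ± 201 TPM in controls and 200 ± 76.5 TPM in Gata2cKO (limma adjusted p = 0.0847). Ctgf was at 82.2 ± 31.5 and 64.7 ± 13.1 TPM (limma adjusted p = 0.598).

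Some known ligands of the alpha4 and alpha8 integrins, named after their values were seen, were mixed. Vcam1, a ligand of alpha4 beta1, rose from 3.27 ± 0.253 to 6.53 ± 1.09 TPM while Itga4 fell (SD, n = 3; log2 fold change 0.81, limma adjusted p = 0.0136). Npnt, which encodes nephronectin, rose from 13.2 ± 0.966 to 21.7 ± 1.48 TPM (limma adjusted p = 0.0116), beside an Itga8 that overlapped between the groups. Each lost its call in 1 of the 6 removals. Fn1, Madcam1 and Spp1, also ligands of alpha4, did not pass. The rest of the list was not sorted by receptor. Fn1, fibronectin, was at 143 ± 1.98 TPM in controls and 139 ± 22.2 TPM in Gata2cKO (limma adjusted p = 0.795). Madcam1, an addressin, was at 8.67 ± 1.29 and 8.17 ± 1.30 TPM (limma adjusted p = 0.761), and Spp1, osteopontin, at 46.1 ± 8.38 and 51.7 ± 24.6 TPM (limma adjusted p = 0.879).

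**Figure D5:**
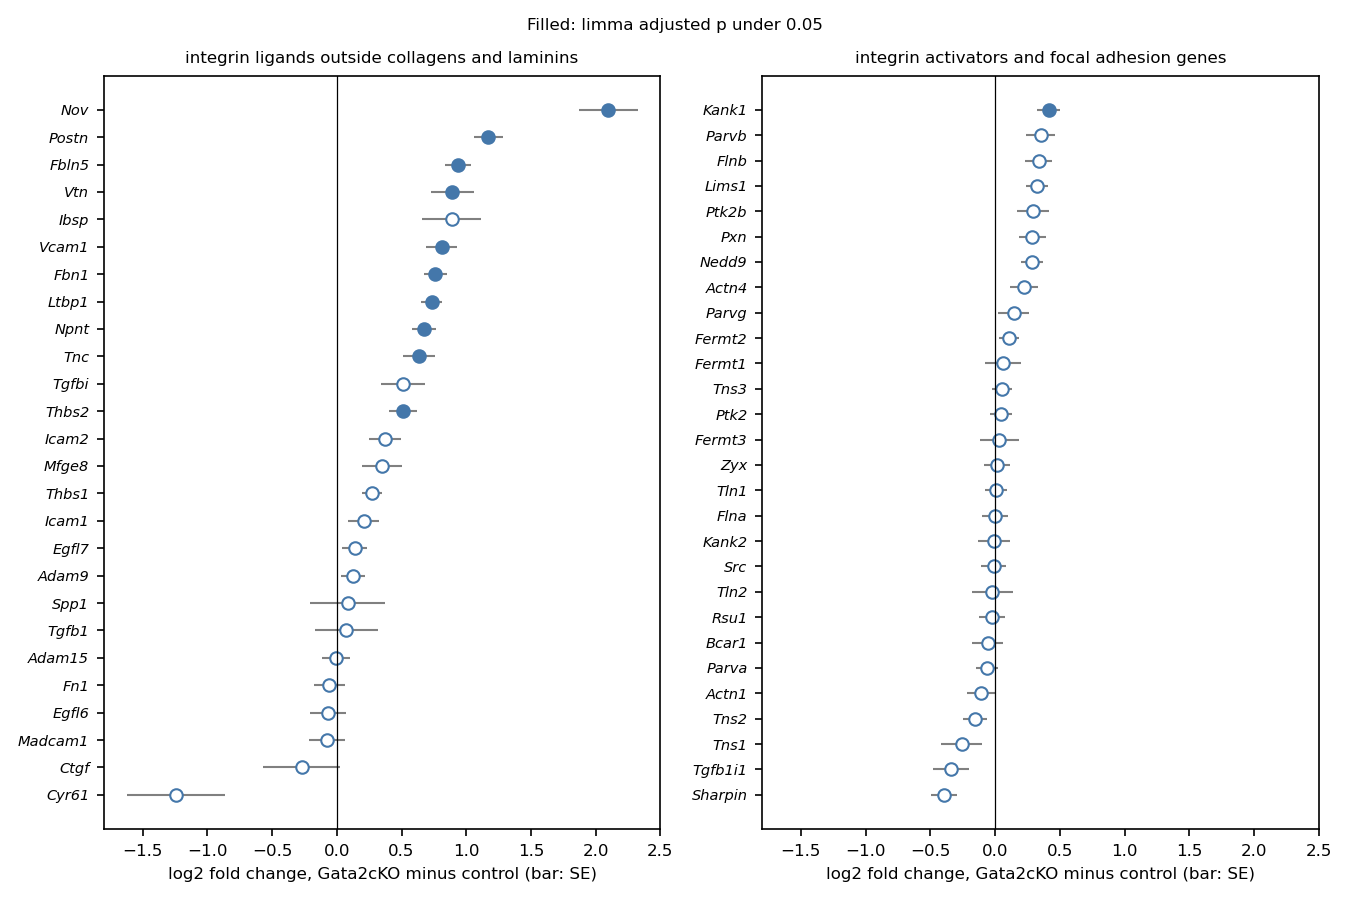
Log2 fold change with its SE (Gata2cKO minus control, x axis) of the tested integrin ligands outside collagens and laminins (left, 26 genes) and of integrin activators and focal adhesion genes (right, 28 genes); filled points passed the threshold. On the left 10 genes passed, all higher, and on the right Kank1 alone passed.

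Inside the cell, integrin activators and focal adhesion genes had 1 of 28 tested members called and a median log2 fold change of 0.02. Without control replicate 1, and likewise with median-of-ratios scaling, 1 was higher and 1 lower. Sharpin was at 105 ± 9.36 TPM in controls and 79.7 ± 7.46 TPM in Gata2cKO (mean ± SD of 3; limma adjusted p = 0.0588). Kank1, which links talin to the cell cortex, rose from 1.70 ± 0.163 to 2.59 ± 0.0851 TPM (mean ± SD of 3; limma adjusted p = 0.0352), a call kept in 1 of the 6 removals. The talin gene Tln1 and the filamin gene Flna, named after their values were seen, had like means. Tln1 was at 109 ± 5.03 and 109 ± 8.18 TPM and Flna at 425 ± 31.0 and 425 ± 41.2 TPM in controls and Gata2cKO (limma adjusted p = 0.975 and 0.996).

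On the cadherin side, catenins and adaptors had 2 of 13 tested members higher and 0 lower. Vcl, vinculin, which strengthens both cadherin and integrin junctions, rose from 3.06 ± 0.0872 to 4.84 ± 0.308 TPM, and Jup, plakoglobin, from 29.6 ± 2.96 to 41.2 ± 3.66 TPM (mean ± SD of 3; limma adjusted p = 0.0176 and 0.0393). Their calls were kept in 2 removals and 1. Ctnnb1, beta-catenin, likewise named with its values known, was at 308 ± 26.0 and 360 ± 5.32 TPM, short of the threshold (limma adjusted p = 0.142).

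Among desmosomal genes Dsp, desmoplakin, rose from 4.28 ± 0.298 to 8.02 ± 0.994 TPM (mean ± SD of 3; limma adjusted p = 0.0116), a call that no removal ended; without control replicate 1 all 3 tested genes of that list, Dsg2, Dsc2 and Dsp, were past the threshold. Of 10 tested genes of the wider cadherin superfamily 1 was called, Cdhr4, which fell from 12.9 ± 0.792 to 7.78 ± 1.09 TPM (limma adjusted p = 0.0178; kept in 3 of the 6 removals). None of the 5 tested nectins and their relatives passed; the most abundant, Nectin2, was at 38.7 ± 6.03 and 37.6 ± 4.24 TPM (limma adjusted p = 0.896). Over the 85 genes the count without 1 library was 7 to 21, lowest without Gata2cKO replicate 1 and highest without control replicate 1.

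The authors' deposited table gives 17 of the 95 genes an adjusted p under 0.05, 11 higher and 6 lower, beside 13.3% of its 14366 genes (6.69% higher and 6.58% lower). Of the 10 genes called here 8 are among them in the same direction, and Pcdhb9 and Pcdhb4 are not. Of the other 9, Cdh24, Cdh3, Itgb1bp2, Pcdh10 and Pcdh7 were tested here and did not pass, and Cdh10, Itgb6, Pcdhga12 and Pcdh9 were under the filter on low values.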

How the data were processed

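Mesonephroi were frozen before extraction, per the series' design text; RNA came from a PicoPure kit, poly-T beads and random hexamers served for the libraries, per the labels' protocols. Per the submitters' processing notes, the tools were STAR 2.7.11a, DESeq2 and DESeq and the build GRCm38. The deposited values of each library sum to between 997351 and 998844, from which the unit was taken to be TPM made by the authors; their quantifier is unnamed in what was used here. The deposited table also holds the authors' log2 fold changes, p-values and adjusted p-values.

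Columns were matched to samples by library name. limma 3.58.1 (R 4.3.3, trended moderated variances) was fitted to log2(TPM + 1) of the 12300 genes with 1 TPM or more in at least 3 of 6 libraries, with group as the only term, two-sided tests and Benjamini-Hochberg adjustment over all tested genes; it was tested on simulated data. Positions and exon overlaps are from GENCODE M21 (GRCm38), matched by gene identifier for all 95 genes. TPM keeps no depth, so replicate spread is the only error. Named genes are those past the threshold, the 3 most abundant of each family and up to 4 of each partner list; other genes of the families and lists, Vcam1, Npnt, Fn1, Madcam1 and Spp1 among them, were named with their values known. The genes and lists were chosen with earlier results of these data known. Alternatives were other pseudocounts, filters and scalings, no trend, a replicate block and removal of each library.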

Additional observations from a re-analysis of the deposited data

How the results depend on the processing

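The count of genes called among the 95 (10, of 55 tested) was 8 to 10 with other pseudocounts, filters, scalings by median of ratios or upper quartile, and without the variance trend. It was 6 with mitochondrial genes left out of the total, 17 in the authors' deposited table and 1 to 10 when 1 library was left out. The count over all genes (919) was 116 to 1539 when 1 library was left out and 1906 in the authors' deposited table. The split of all calls was 705 higher and 214 lower (76.7% higher), while 54.9% were higher with median-of-ratios scaling, 64.5% with upper-quartile scaling and 60.5% without mitochondrial genes. Among the called of the 95 it was 9 and 1, and 7 and 2 with median-of-ratios scaling. For the partner genes (15 called) the removals gave 7 to 21, and 26 passed in the authors' deposited table. No log2 fold change of a called gene changed sign in any of these settings.

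With replicate number as a block, 7 of the 95 genes, 774 of all genes and 16 partner genes were called. Deviations of same-numbered libraries from their group means correlated at 0.25, -0.07 and 0.04 across tested genes. The value for replicates 1 was the highest of any pair, and the best match of control replicate 2 was Gata2cKO replicate 3. These weak correlations show no clear pairing by number, and with 3 libraries a group they cannot exclude one. TPM keeps no read depth, and genes under 1 TPM rest on unknown read numbers. With 3 libraries a group, a change within the intervals given could not be seen.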
